A study of Oryctolagus cuniculus with 6 samples.

Results

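The genes described here build and seal the epithelium of the rabbit blastocyst and move fluid across it. They were taken as every non-control probe of the array whose description names claudin, occludin, tight junction, gap junction, cadherin, desmoplakin, desmocollin, desmoglein, keratin, aquaporin or Na+/K+. That rule found 245 of 43603 probes, for 121 genes on an array whose probes were matched to 10692 gene symbols in all, and each gene was represented by its brightest probe. Of these, 83 genes (137 probes) gave enough signal to be tested, and 38 did not. The rule reads letters, so it also caught 5 genes that are only named after keratinocytes, and keratin associated proteins and hair keratins whose usual place is the hair shaft.

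RNA was measured in 6-day-old blastocysts of New Zealand White rabbits. Embryos of 1 group had been vitrified in dimethyl sulphoxide and ethylene glycol and plunged in straws into liquid nitrogen, and embryos of the other had been slowly frozen in dimethyl sulphoxide with seeded ice. Per the study's design text, both kinds then developed in recipient females and were collected alive at day 6, so embryos that were lost on the way are not represented, and the untreated embryos were their in vivo counterparts. Each of 6 arrays carried 1 treated and 1 untreated extract in different dyes, 3 arrays for vitrified and 3 for frozen embryos, with the dyes swapped on replicate 2 of each. The labels give the same 3 untreated extracts to both treatments, so both comparisons share their reference. The labels call the extracts biological replicates without giving the number of embryos in each, and p-values measure the spread between these extracts.

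The outer layer of the blastocyst, the trophectoderm, is a simple epithelium. Tight junctions, made of claudins and occludin held by scaffold proteins, seal the gaps between its cells, while cadherins and desmosomes hold the cells together and keratins 8 and 18 anchor to the desmosomes inside. The Na+/K+ pump drives ions into the central cavity, water follows in part through aquaporins, and the connexins of gap junctions let small molecules pass between cells.

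The arrays measured this epithelium in part. Of 11 markers of the trophectoderm 7 had a tested probe, and CDX2, ELF5, EOMES and TEAD4 did not. GATA2, GATA3, TFAP2A, TFAP2C, ELF3 and KLF5 were well above background in all 12 channel measurements. Of the member genes, 50 of 121 were well above background in all 12 measurements and 30 in none. Detection differed between the families. Among tight junction genes 13 of 17 were well above background everywhere, among aquaporins 6 of 10, among connexins 5 of 9, among desmosomal genes 2 of 6 and among cadherins 1 of 12. Keratins split into detected and silent members, with 9 of 32 well above background everywhere. KRT8, KRT18 and KRT19, the keratins of simple epithelia, were among the 9. The others of the 9 were KRT13, KRT25, KRT33A, KRT84, LOC100343164 and LOC100344686. They include a keratin of stratified epithelia, KRT13, and a hair keratin, KRT33A, so the detected keratins were not only those of simple epithelia. KRT1, KRT5 and KRT10, the keratins of skin, were above background in 0 of 12. Likewise the epithelial desmoglein DSG2 was above background in 12 of 12 measurements, DSG3 in 6 and the skin desmogleins DSG1 and DSG4 in 0. CDH1, E-cadherin, had 1 tested probe, which was dim and well above background in 9 of 12.

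**Figure D1:**
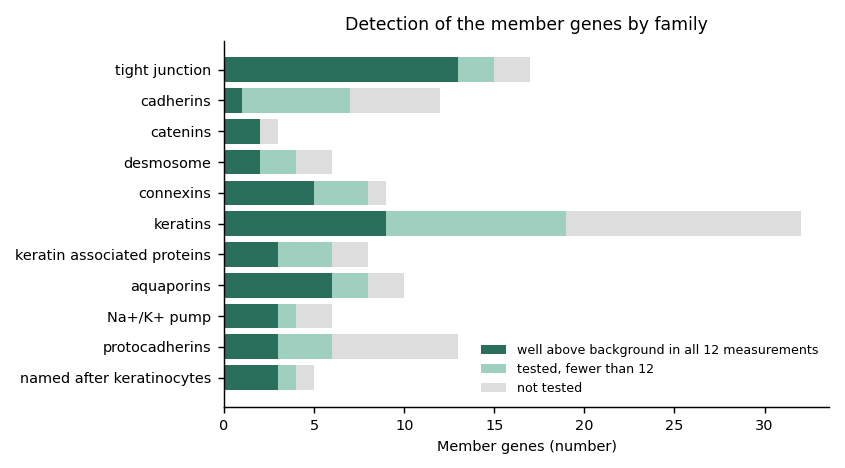
Number of member genes in each family, split into those well above background in all 12 channel measurements (dark), those tested with fewer (light) and those not tested (grey). Tight junction genes were detected almost completely, with 13 of 17 in the dark class, and keratins in part, with 9 of 32.

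The values rest on probes of 60 bases, shown here for the genes on which the results turn, 5′ to 3′ as the array files give them. Capitals mark the bases that a pair of overlapping probes share. The second probe of DSG2 shares 20 bases with the first, so the agreement of its probes is not separate evidence. The GJA1 probes do not overlap, but both read the same extracts on the same 6 arrays and so add no replicate of a treatment.
GJA1: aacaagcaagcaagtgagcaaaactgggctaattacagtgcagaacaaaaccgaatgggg
GJA1, second probe: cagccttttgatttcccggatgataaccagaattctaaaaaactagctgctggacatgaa
DSG2: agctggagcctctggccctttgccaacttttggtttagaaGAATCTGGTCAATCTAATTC
DSG2, second probe: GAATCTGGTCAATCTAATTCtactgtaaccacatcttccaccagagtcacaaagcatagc
CLDN3: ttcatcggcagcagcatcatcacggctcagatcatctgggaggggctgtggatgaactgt
AQP7: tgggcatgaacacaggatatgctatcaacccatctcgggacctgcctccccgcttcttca
KRT18: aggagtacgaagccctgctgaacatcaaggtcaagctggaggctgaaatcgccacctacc
KRTCAP2: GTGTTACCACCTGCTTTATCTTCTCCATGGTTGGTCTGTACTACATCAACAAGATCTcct
LOC100340499: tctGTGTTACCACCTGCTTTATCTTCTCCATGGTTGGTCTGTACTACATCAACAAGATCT

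The files place the first GJA1 probe at chr12:110525961-110526020 and the first DSG2 probe at chr9:72814434-72814493, both on the plus strand. They place the AQP7 probe at chr1:20078053-20078112 and the KRT18 probe at chr4:36853905-36853964, likewise on the plus strand, and give no position for CLDN3. No genome build is named for these positions in the sources used here, and no annotation of exons was used. KRTCAP2 and LOC100340499, listed as separate genes, share 57 of the 60 bases of their probes and starts 3 bases apart on chromosome 13, and so report on 1 stretch of transcript. Apart from that pair and 2 keratin associated proteins of the KAP6 kind, which share a run of 34 bases, no chosen probes of different members shared a run over 16 bases. Keratins resemble each other over longer, imperfect stretches, and signal from a close relative cannot be told apart on these probes.

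No member gene passed the test in either treatment or between the treatments. The test was limma's, with Benjamini-Hochberg adjustment over all 30748 tested probes and a threshold of 0.05. In vitrified embryos it called 0 of 83 members, where 0.0195% of all tested probes were called. In frozen embryos it called 0 of 83, against 0.185% of all probes, and between vitrified and frozen embryos 0 of 83, against 0% of all probes. At an unadjusted p under 0.05, 13 members stood in vitrified embryos (15.7%, against 17.4% of all probes), 11 in frozen embryos (13.3%, against 13.2%) and 6 between the treatments (7.23%, against 7.55%). These shares lie near those of the whole array, so every difference below is a value with its error and not a call. With 3 arrays per treatment the fit has 3 residual degrees of freedom. Among the members the standard error had a median of 0.12 on the log2 scale for each treatment and 0.16 for their difference.

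Values are log2 ratios of the treated over the untreated extract of the same array, given in the order of replicates 1, 2 and 3, and fitted values allow for the dye. The median fitted value of the 83 members was +0.08 in vitrified embryos, where that of all tested probes was +0.01, and +0.02 in frozen embryos, where that of all probes was +0.01. By array, the median of the members was +0.04, +0.05 and +0.09 on the vitrified arrays and -0.01, +0.02 and +0.13 on the frozen arrays. Of the 83, 53 lay above 0 in vitrified embryos (63.9%, against 51.3% of all probes) and 49 in frozen embryos (59%, against 51.7%). At an unadjusted p under 0.05 the vitrified values lay mostly above 0, with 12 members higher (14.5%, against 9.99% of all probes) and 1 lower (1.2%, against 7.39%). Among these 12 are the 4 tested genes that are only named after keratinocytes. In frozen embryos they were balanced, with 6 higher (7.23%, against 6.06%) and 5 lower (6.02%, against 7.16%). Between vitrified and frozen embryos 3 were higher in vitrified embryos (3.61%, against 4.07%) and 3 lower (3.61%, against 3.48%), and 49 of 83 differences lay above 0 (59%, against 53.3%). On all 3 vitrified arrays 24 members were above 0 (28.9%, against 20.4% of all probes) and 9 below (10.8%, against 16.9%). On all 3 frozen arrays 17 were above 0 (20.5%, against 15.7%) and 16 below (19.3%, against 14.7%).

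**Figure D2:**
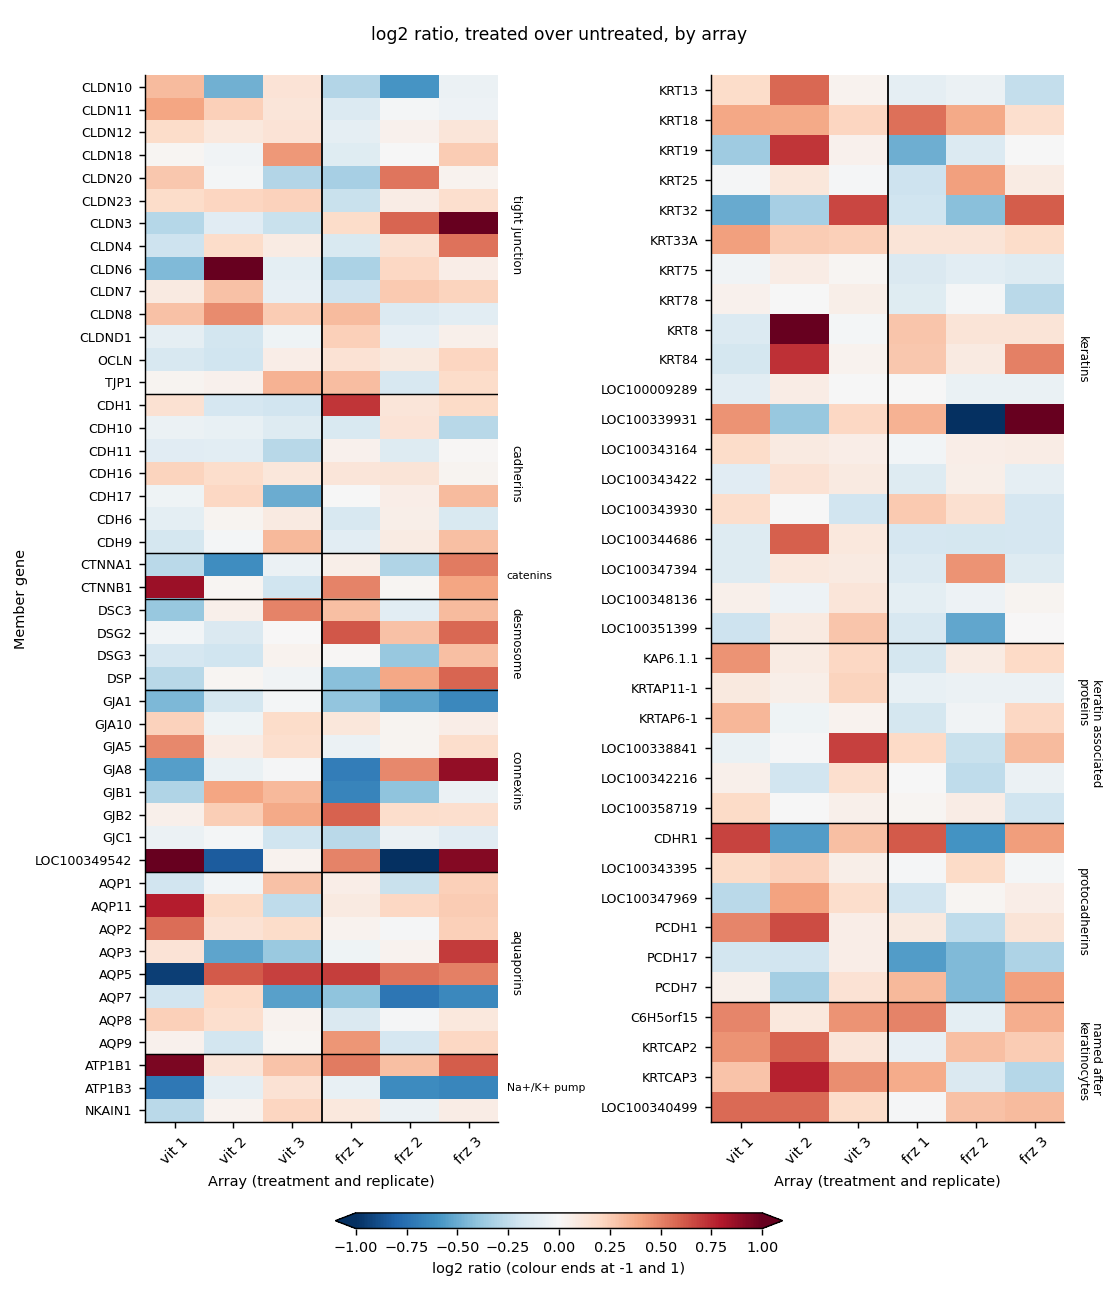
log2 ratio of treated over untreated extract for 81 of the 83 tested members (rows, by family) on the 3 vitrified (vit) and 3 frozen (frz) arrays (columns), red above 0 and blue below. KRT18 and ATP1B1, among others, are red on all 6 arrays, and GJA1 and, more faintly, GJC1 are blue on all 6. LOC100349542 and CDHR1 are blue on both dye-swapped arrays, vit 2 and frz 2. The 7 members with a whole group not well above background are drawn too.

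In the tight junction family, 11 of 15 tested members lay above 0 in vitrified embryos, with values from -0.20 to +0.34, and 13 of 15 in frozen embryos, with values from -0.41 to +0.61. CLDN3, a claudin of tight epithelia, had the widest contrast between the treatments. Its log2 ratios were -0.28, -0.11 and -0.22 on the vitrified arrays and +0.19, +0.58 and +1.05 on the frozen arrays. The 2 sets of arrays did not overlap, being below 0 on every vitrified array and above 0 on every frozen one.

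The fitted values of CLDN3 were -0.20 ± 0.16 (SE, n = 3) in vitrified embryos and +0.61 ± 0.16 in frozen embryos (adjusted p = 0.179 in the frozen comparison, limma). Their difference, vitrified minus frozen, was -0.81 ± 0.22 (unadjusted p = 0.00694, adjusted p = 0.591, limma). The channels show where this contrast lay. On the log2 intensity scale CLDN3 was at 10.60, 10.05 and 10.05 in vitrified embryos, against 10.88, 10.17 and 10.27 in the untreated extracts of the same arrays. It was at 10.44, 10.53 and 10.44 in frozen embryos, against 10.26, 9.95 and 9.39 in the untreated extracts beside them. The mean levels were thus 10.24 in vitrified and 10.47 in frozen embryos, which lay closer together than the untreated means on the vitrified arrays, 10.44, and on the frozen arrays, 9.87, although the labels name the same untreated extracts for both. Without frozen replicate 3 the frozen value was +0.38.

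TJP1, or ZO-1, a scaffold that ties claudins to actin, was at +0.09 ± 0.11 in vitrified and +0.06 ± 0.11 in frozen embryos.

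CLDN10, a claudin known to form ion-selective pores, lay below 0 in frozen embryos, with -0.29, -0.59 and -0.06 on the frozen arrays. On the vitrified arrays it was mixed, at +0.32, -0.48 and +0.13. The fitted frozen value was -0.41 ± 0.11 (unadjusted p = 0.00541, adjusted p = 0.179, limma). The 3 tested probes of the gene, which overlap each other, lay between -0.41 and -0.22. CLDN11, another claudin, was at +0.39, +0.24 and +0.12 on the vitrified arrays and at -0.14, -0.02 and -0.05 on the frozen arrays. Those sets did not overlap either, and the difference, vitrified minus frozen, was +0.32 ± 0.14 (unadjusted p = 0.0483, adjusted p = 0.656, limma).

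The remaining tight junction genes stayed closer to 0. OCLN, occludin, a membrane protein of the seal, was at -0.12 ± 0.10 in vitrified and +0.13 ± 0.10 in frozen embryos, and every vitrified array lay below every frozen array. CLDN4 and CLDN7, barrier-forming claudins, were at +0.04 ± 0.15 and +0.15 ± 0.11 in vitrified embryos and at +0.20 ± 0.15 and +0.14 ± 0.11 in frozen embryos. CLDN6, a claudin of embryonic epithelia, was set by 1 array, being at -0.44, +1.11 and -0.09 on the vitrified arrays and at -0.31, +0.21 and +0.07 on the frozen arrays. CLDN8 was at +0.34 ± 0.12 in vitrified embryos and +0.02 ± 0.12 in frozen embryos. CLDN1 was well above background in 2 of 12 measurements and was not tested.

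Among adhesion genes the desmosomal cadherin DSG2, which joins the keratin network of one cell to that of the next, had the smallest p of all members. Its log2 ratios were -0.03, -0.14 and 0.00 on the vitrified arrays and +0.62, +0.29 and +0.58 on the frozen arrays. All 3 frozen arrays lay above all 3 vitrified arrays, which stayed at or below 0 within rounding. In log2 intensity DSG2 was at 9.39, 8.95 and 9.27 in frozen embryos, against 8.77, 8.66 and 8.69 in the untreated extracts beside them. Those ranges did not overlap, and the share of all probes that separate this way was not counted. The untreated extracts of the vitrified arrays, the same ones per the labels, were at 9.10, 9.03 and 8.82, which overlaps the frozen range. The untreated means were 8.98 on the vitrified and 8.71 on the frozen arrays. The treated means were 8.93 in vitrified and 9.21 in frozen embryos.

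The fitted value of DSG2 was +0.46 ± 0.09 in frozen embryos (unadjusted p = 0.00116, adjusted p = 0.122, limma) and -0.09 ± 0.09 in vitrified embryos. The difference, vitrified minus frozen, was -0.55 ± 0.12 (unadjusted p = 0.00250, adjusted p = 0.538, limma). It was -0.65 within the slide that held vitrified replicate 1 with frozen replicates 1 and 2, and -0.57 within the slide that held the other 3 arrays. DSG2 lies at the end of a row of desmosomal cadherin genes on chromosome 9, between positions 72267913 and 72814493, whose other tested members did not share its value. DSC3 was at +0.14 ± 0.17 and DSG3 at -0.08 ± 0.12 in frozen embryos, and both were dim. DSP, desmoplakin, the plaque protein that binds keratins, was at -0.42, +0.39 and +0.58 on the frozen arrays, with a fitted value of +0.22 ± 0.18.

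CDH1, the E-cadherin that holds epithelial cells together, was at +0.16, -0.17 and -0.19 on the vitrified arrays and at +0.72, +0.12 and +0.19 on the frozen arrays. Its frozen value was +0.30 ± 0.13 (unadjusted p = 0.0537, adjusted p = 0.386, limma) and its vitrified value -0.11 ± 0.13. The catenins link cadherins to actin. CTNNA1, alpha-catenin, was the only member below 0 in vitrified embryos at an unadjusted p under 0.05, with -0.27, -0.62 and -0.06 on the vitrified arrays against +0.06, -0.30 and +0.52 on the frozen arrays. Its vitrified value was -0.40 ± 0.12 (unadjusted p = 0.0101, adjusted p = 0.194, limma) and its frozen value +0.01 ± 0.12. CTNNB1, beta-catenin, was at +0.16 ± 0.18 and +0.24 ± 0.18 in vitrified and frozen embryos. The other cadherins measured, among them CDH6, CDH10 and CDH16, lay between -0.17 and +0.18 in vitrified embryos.

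Of the protocadherins, cadherin relatives without the usual catenin link, PCDH17 was at -0.18, -0.19 and +0.06 on the vitrified arrays and at -0.56, -0.44 and -0.31 on the frozen arrays. It was below 0 on every frozen array, with a fitted value of -0.45 ± 0.10 (unadjusted p = 0.00300, adjusted p = 0.154, limma) and 4 probes between -0.46 and -0.33. The file describes this gene as protocadherin 10-like, and the gene table names it PCDH17. PCDH1 was at +0.40 ± 0.14 in vitrified embryos and -0.01 ± 0.14 in frozen embryos.

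Among connexins, GJA1 lay below 0 on every array. GJA1, connexin 43, the most widely used gap junction protein, had log2 ratios of -0.45, -0.17 and -0.02 on the vitrified arrays and of -0.40, -0.53 and -0.64 on the frozen arrays. In log2 intensity it was at 7.69, 7.64 and 7.33 in frozen embryos, against 8.08, 8.17 and 7.97 in the untreated extracts beside them. These ranges did not overlap. The fitted value was -0.52 ± 0.12 in frozen embryos (unadjusted p = 0.00249, adjusted p = 0.146, limma) and -0.21 ± 0.12 in vitrified embryos, and the second probe, which does not overlap the first, was at -0.46 in frozen embryos. With the scanner software's own ratio, which adds no offset to dim signals, the frozen values were -0.93 for GJA1 and -0.99 for PCDH17, and neither passed.

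GJB2, connexin 26, was above 0 on all 6 arrays, at +0.05, +0.25 and +0.38 on the vitrified arrays and at +0.59, +0.18 and +0.17 on the frozen arrays. Its frozen value was +0.30 ± 0.12 (unadjusted p = 0.0448, adjusted p = 0.366, limma), and it was +0.17 without frozen replicate 1. GJB1, connexin 32, was at -0.30, +0.40 and +0.33 on the vitrified arrays and at -0.66, -0.40 and -0.05 on the frozen arrays. Every frozen array was below 0, but vitrified replicate 1 fell within their range, and the difference, vitrified minus frozen, was +0.51 ± 0.23 (adjusted p = 0.668, limma). GJA5 and GJA10 stayed between +0.02 and +0.22 in both treatments.

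**Figure D3:**
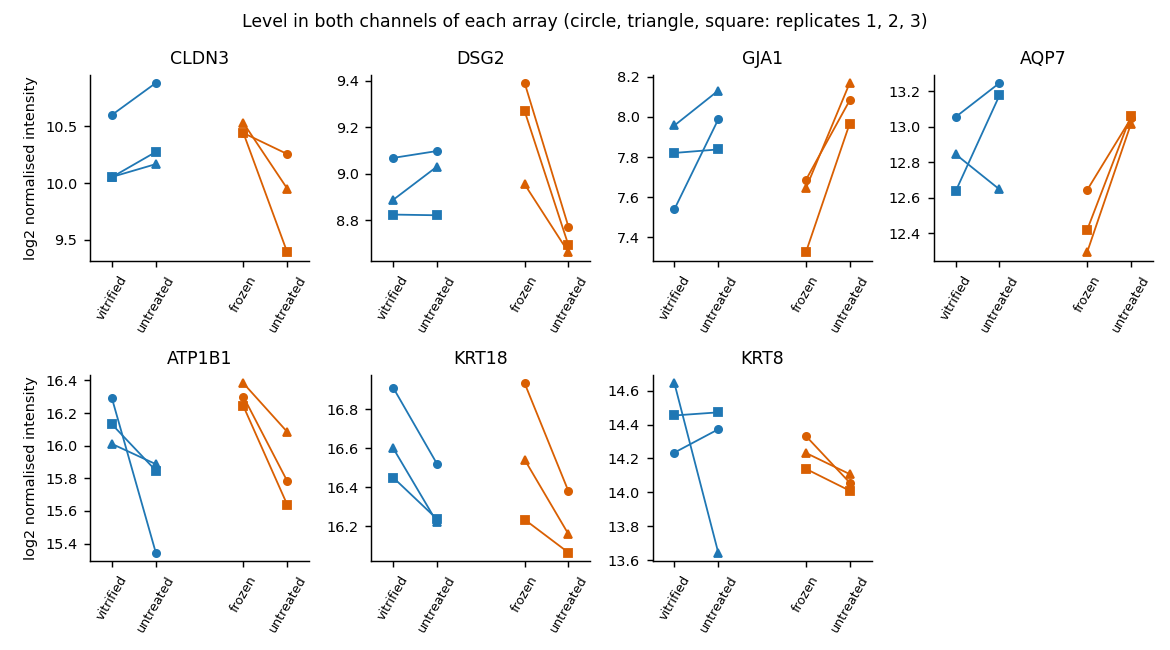
log2 normalised intensity of 7 members in the treated (left) and untreated (right) channel of each array, with vitrified arrays in blue and frozen arrays in orange, and a line joining the channels of 1 array. For every drawn member except KRT18 the frozen points do not overlap the untreated points beside them, and the share of all probes that separate this way was not counted. For CLDN3 the untreated points of the frozen arrays spread from 9.39 to 10.26.

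The keratins of simple epithelia had unlike values. KRT18, a filament protein that pairs with keratin 8, was above 0 on all 6 arrays, at +0.39, +0.38 and +0.21 on the vitrified arrays and at +0.55, +0.38 and +0.17 on the frozen arrays. Its fitted values were nearly equal, +0.34 ± 0.11 in vitrified embryos (unadjusted p = 0.0165, adjusted p = 0.216, limma) and +0.38 ± 0.11 in frozen embryos (unadjusted p = 0.00967, adjusted p = 0.212, limma). The difference, vitrified minus frozen, was -0.04 ± 0.15.

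KRT8, its partner, was at -0.14, +1.00 and -0.02 on the vitrified arrays and at +0.28, +0.13 and +0.13 on the frozen arrays. Its vitrified value of +0.36 ± 0.17 rests on replicate 2, whose untreated level of 13.64 was the lowest of the 6. KRT19, the third simple keratin, was at -0.36, +0.71 and +0.04 on the vitrified arrays and at -0.49, -0.14 and 0.00 on the frozen arrays, again with its one high value on vitrified replicate 2. That same array gave the highest vitrified value of CLDN6, KRT13, KRT84 and LOC100344686, a keratin gene without a symbol. Without that array the vitrified value was -0.12 for KRT8, -0.10 for KRT19, -0.10 for CLDN6 and +0.16 for KRT13, against +0.36, +0.21, +0.33 and +0.31 with it.

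In the files the genes of KRT8 and KRT18 lie next to each other among the 13 keratins on chromosome 4, between 36392041 and 36853964, and 19 more keratins lie on chromosome 19, between 41821442 and 42580537. The 8 tested keratins of the first row lay between +0.02 and +0.36 in vitrified embryos and between -0.26 and +0.38 in frozen embryos. The low frozen end is that of LOC100351399, which was well above background in 0 of 3 untreated channels of the frozen arrays. That end therefore rests on background signal. The 11 of the second row lay between -0.14 and +0.31 in vitrified embryos and between -0.13 and +0.14 in frozen embryos. KRT13, a keratin of stratified internal epithelia, was at +0.19, +0.57 and +0.03 on the vitrified arrays and at -0.09, -0.06 and -0.24 on the frozen arrays. Those sets did not overlap, and the difference, vitrified minus frozen, was +0.40 ± 0.14 (unadjusted p = 0.0257, adjusted p = 0.631, limma). KRT33A, a hair keratin, was above 0 on all 6 arrays, with +0.29 ± 0.09 in vitrified embryos and +0.14 ± 0.09 in frozen embryos.

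The keratin associated proteins lay close to 0, between -0.03 and +0.23 in vitrified embryos and between -0.15 and +0.03 in frozen embryos. Over all members, 9 had every vitrified array above every frozen array (10.8%, against 5.75% of all probes) and 4 had every vitrified array below every frozen array (4.82%, against 4.87%). The 9 were CLDN11, CLDN23, KRT13, KRT33A, KRT75, KRT78, KRTAP11-1, LOC100344686 and PCDH17, and among the 4 were CLDN3, DSG2 and OCLN. KRT75 and KRT78 were well above background in 0 of 3 untreated channels of the frozen arrays, so their frozen ratios rest on background signal and no fold is given for them. The file calls KRT78 keratin 71-like.

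Of the genes caught by their names, KRTCAP2, a subunit of the complex that attaches sugars to new membrane and secreted proteins, had the smallest vitrified p together with LOC100340499, which reads the same stretch. KRTCAP2 was at +0.45, +0.59 and +0.12 on the vitrified arrays and at -0.08, +0.30 and +0.25 on the frozen arrays. LOC100340499 was at +0.57, +0.57 and +0.19 on the vitrified arrays and at -0.01, +0.29 and +0.32 on the frozen arrays. Their vitrified values were +0.43 ± 0.11 (adjusted p = 0.185, limma) and +0.47 ± 0.12 (unadjusted p = 0.00451, adjusted p = 0.176, limma), and they count as 1 observation. KRTCAP3 was at +0.28, +0.77 and +0.47 on the vitrified arrays and at +0.37, -0.14 and -0.29 on the frozen arrays, with +0.52 ± 0.15 in vitrified embryos and 0.00 ± 0.15 in frozen embryos. Without vitrified replicate 2 the vitrified value of KRTCAP3 was +0.28. Vitrified replicate 1 lay below frozen replicate 1, so those sets overlapped. None of these is a keratin, and without the 4 of this kind 8 of the 12 members with a vitrified p under 0.05 above 0 are left. The share of the 12 (14.5%, against 9.99% of all probes) therefore does not describe the junction, keratin and transport genes alone, and its excess over all probes is not read as theirs.

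Fluid transport genes had values of both signs. ATP1B1, the beta subunit that brings the Na+/K+ pump to the membrane, was above 0 on every array, at +0.94, +0.12 and +0.28 on the vitrified arrays and at +0.52, +0.30 and +0.60 on the frozen arrays. In log2 intensity ATP1B1 was at 16.30, 16.38 and 16.24 in frozen embryos, against 15.78, 16.08 and 15.64 in the untreated extracts beside them, with no overlap. Its fitted values were +0.39 ± 0.14 in vitrified embryos (unadjusted p = 0.0240, adjusted p = 0.230, limma) and +0.41 ± 0.14 in frozen embryos (unadjusted p = 0.0188, adjusted p = 0.266, limma). Without vitrified replicate 1 the vitrified value was +0.20. ATP1B1 is 1 of 2 members, with KRT18, to stand above 0 at an unadjusted p under 0.05 in both treatments, which share their untreated extracts. The share of all probes that do so was not counted, so this overlap is not read as a trait of the members.

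The other beta subunit, ATP1B3, was at -0.72, -0.09 and +0.14 on the vitrified arrays and at -0.08, -0.63 and -0.65 on the frozen arrays. Its frozen value was -0.46 ± 0.19 (unadjusted p = 0.0440, adjusted p = 0.363, limma), opposite in sign to that of ATP1B1, and it was -0.27 without frozen replicate 2. ATP1A4 and ATP1B2 were above background in 0 of 12 measurements.

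AQP7, a channel that passes glycerol as well as water, was at -0.19, +0.20 and -0.54 on the vitrified arrays and at -0.40, -0.72 and -0.64 on the frozen arrays. In log2 intensity it was at 12.64, 12.29 and 12.42 in frozen embryos, against 13.05, 13.02 and 13.06 in the untreated extracts beside them. These ranges did not overlap. The untreated extracts of the vitrified arrays, the same ones per the labels, were at 13.25, 12.65 and 13.18, the lowest of which lay next to the highest frozen level. Its fitted value was -0.56 ± 0.15 in frozen embryos (unadjusted p = 0.00536, adjusted p = 0.179, limma) and -0.15 ± 0.15 in vitrified embryos. Without frozen replicate 2 the frozen value was -0.24.

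AQP3, another channel for water and glycerol, was at +0.13, -0.53 and -0.37 on the vitrified arrays and at -0.04, +0.03 and +0.70 on the frozen arrays, and neither fitted value had an unadjusted p under 0.05. AQP5, a water channel of secretory epithelia named after its values were seen, was at -0.94, +0.61 and +0.68 on the vitrified arrays and at +0.69, +0.54 and +0.51 on the frozen arrays. It was above 0 on 5 of 6 arrays, and its frozen value was +0.64 ± 0.28 (adjusted p = 0.395, limma). Without vitrified replicate 1, the 1 array that stood apart, the frozen value was +0.57 and passed (adjusted p = 0.0444, limma). In that setting 1 of 83 members and 513 of 30748 probes of the whole array passed in the frozen comparison. The array left out is a vitrified one, which enters the frozen test through the shared spread and the dye term. AQP1 and AQP11 were at -0.01 ± 0.12 and +0.24 ± 0.18 in vitrified embryos and at -0.01 ± 0.12 and +0.18 ± 0.18 in frozen embryos. AQP9 was not well above background in any untreated extract of the vitrified arrays, so no fold is given for it.

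**Figure D4:**
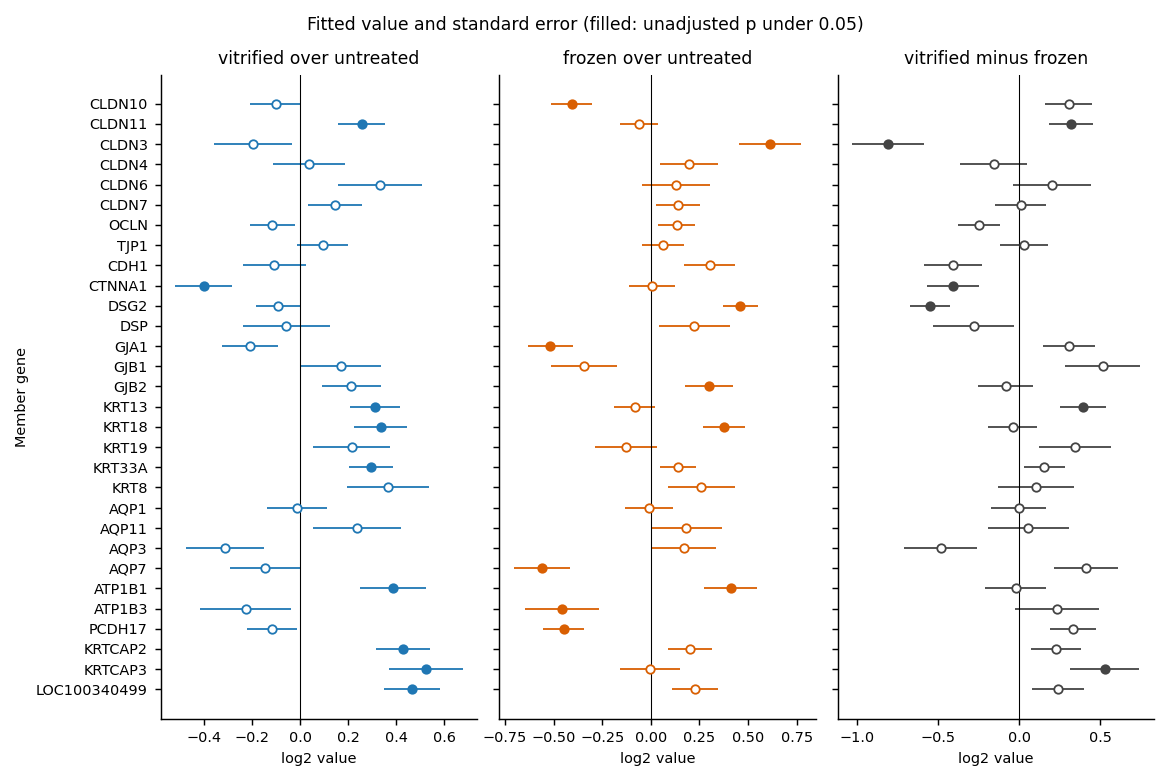
Fitted log2 values (points) with their standard errors (bars) for members named in the text by rule, as vitrified over untreated, frozen over untreated and vitrified minus frozen, filled where the unadjusted p was under 0.05. CLDN3 and DSG2 lie farthest left among filled points in the right panel, at -0.81 and -0.55, and no point passed after adjustment.

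Genes that work beside the members were taken from a list of 56 junction, polarity and ion transport partners, which includes CTNNA1 and CTNNB1. Of these 35 were tested and 0 passed in either direction in any comparison (limma). Their median was -0.02 in vitrified embryos and +0.01 in frozen embryos, with 6 and 3 genes at an unadjusted p under 0.05, where 17.4% and 13.2% of all probes had one. EPCAM, an epithelial adhesion protein, was at -0.51 (adjusted p = 0.185) in vitrified embryos and -0.44 (adjusted p = 0.235) in frozen embryos. PRKCI, an atypical protein kinase C of the polarity complex, was at -0.47 (adjusted p = 0.192) in vitrified embryos and -0.52 (adjusted p = 0.180) in frozen embryos. SLC9A3, a sodium-proton exchanger of absorptive epithelia, was at +0.01 (adjusted p = 0.983) in vitrified embryos and +0.56 (adjusted p = 0.201) in frozen embryos, all by limma. Between vitrified and frozen embryos PRKCZ, another atypical kinase of this kind, was at +0.40 (adjusted p = 0.591, limma).

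Marker genes of other tissues were read on the same arrays, and 1 of them passed. In frozen embryos the 6 tested markers of hypoblast and yolk sac endoderm all lay below 0, with a median of -1.06 and 1 call (APOA2, adjusted p = 0.0425, limma), while in vitrified embryos their median was -0.13. The 5 tested blood markers had a median of +0.75 in vitrified and +0.28 in frozen embryos, with 0 calls, and the 4 tested markers of uterine epithelium and secretions +0.88 and +0.52, with 0 calls. The 7 tested trophectoderm markers had a median of +0.14 in vitrified and +0.27 in frozen embryos, with 0 calls, and both tested epiblast markers, POU5F1 and OTX2, lay below 0 in frozen embryos, at -0.82 and -0.51. Of 12 skin markers only KRT13, DSG3 and DSC3, members here, were tested. The part that shares of these tissues have in the members' values was not tested, and in whole embryos fewer cells of a type and less RNA per cell cannot be told apart.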

How the data were processed

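Total RNA of 12 channel measurements on 6 two-colour Agilent arrays was analysed. The authors deposited intensity values as the scanner software, Agilent Feature Extraction 10.10.1.1, wrote them, a mean signal and a median of the surrounding background for each spot and channel, per the file headers and the submitters' processing notes. Per the file headers the same software made the log10 ratio of both channels (Cy5 over Cy3) after its own background and dye correction, and this ratio was an alternative. From the intensities, background was corrected with normexp (offset 50) and each array normalised by loess in limma 3.58.1 under R 4.3.3, with control and outlier-flagged spots at weight 0. Flagged spots were left out, spots of a probe were averaged and ratios turned to treated over untreated. Tested were probes that the software marked well above background in 3 or more of 12 channel measurements with a value on all 6 arrays, 30748 of 43603, and 19 with enough signal were left out for a flagged spot.

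The fit held a coefficient for each treatment and a dye term over the 6 arrays, with eBayes and Benjamini-Hochberg adjustment over all tested probes. Errors are standard errors of the fit. The number of arrays limits the precision, and no exact test of 3 against 3 can reach a p under 0.1. Ratios for 30748 probes were also simulated, drawn independently with the spread fitted over all 6 arrays, with changes put in on the vitrified arrays. There 85.8% of 2-fold and 99.5% of 4-fold changes were called, with 9.9 false among 195.2 calls per set. Changes smaller than 2-fold, the size of every fitted treatment value of a member here, were not simulated, and neither were shared untreated extracts.

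Genes were named through a RefSeq table of rabbit genes (mOryCun1.1), used for names only: 23528 probes got a symbol and 20075 did not, and 114 of 121 member genes were named this way. The record described as cytokeratin 18 was taken as KRT18, and the probes the file calls GJD3 stand under GJC1. The members, the gene lists and the rule for named genes were chosen with earlier results of these data known. That rule names, per comparison and direction, up to 6 members with the smallest unadjusted p under 0.05, up to 12 called members, and 35 genes fixed by name. Of the 35, 24 were tested, CLDN1 was a member not tested, and others, such as KRT7, CDH2, CDH3, CDH5, TJP3 and DSC2, were not among the members found by the rule. Values of a few genes are not reported here. Members named beyond the rule serve as examples of their family. Same-numbered arrays share an untreated extract per the labels, and the deviations of such pairs from their group means correlated at 0.02, 0.59 and 0.17. The dye was not removed from these deviations, and same-numbered arrays also share their dye order, swapped on replicate 2. A shared extract and a shared dye effect therefore cannot be told apart in these correlations. The replicate numbers were taken as a block in 1 alternative. The arrays lay on 2 slides of 3.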

Additional observations from a re-analysis of the deposited data

How the results depend on the processing

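Across 15 alternatives the number of members called stayed at 0 of the tested ones in all 3 comparisons, apart from 1 in frozen embryos, AQP5, without vitrified replicate 1. Probes called over the whole array moved far more. In vitrified embryos 6 became 0 with the scanner software's ratio and 0 with slide as a covariate, and ranged from 0 to 16 when an array was left out. In frozen embryos 57 became 1 with the scanner ratio, 33 with median centring, 8 without a dye term and 0 with slide as a covariate, and ranged from 0 to 513 when an array was left out, the highest without vitrified replicate 1. Between vitrified and frozen embryos none passed in any alternative. With the replicate number as a block (consensus correlation -0.10) 8 and 61 probes passed and no member, so the pairing changed no call of a member. The members' median in vitrified embryos was +0.11 with the scanner ratio, +0.022 without the filter on dim probes (121 genes) and +0.046 with the median over a gene's probes, and from +0.018 to +0.10 with an array left out. In frozen embryos it ranged from -0.01 to +0.08 and for vitrified minus frozen from +0.05 to +0.10 with an array left out. No member with an unadjusted p under 0.05 changed sign in any alternative. The cause of these changes was not tested. Dim signals limit 7 tested members, which had a whole group not well above background.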

Other observations

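A few members followed the dye rather than the treatment. LOC100349542, a gap junction gamma 3 gene, was at +1.04, -0.83 and +0.04 on the vitrified arrays and at +0.50, -1.18 and +0.92 on the frozen arrays, with the dyes swapped on the second of each 3. CDHR1, described in the file as protocadherin 21, was at +0.68, -0.56 and +0.30 on the vitrified arrays and at +0.61, -0.60 and +0.42 on the frozen arrays. The dye terms of LOC100349542 and CDHR1, +0.81 and +0.54 in the direction of Cy5, passed limma's test (adjusted p = 0.0462 and 0.0260), as did those of 462 of all 30748 tested probes, and both genes were well above background in 6 of 12 measurements. LOC100339931, which the file describes as a keratin, had the same alternation, at +0.45, -0.38 and +0.20 on the vitrified arrays and at +0.34, -1.16 and +1.21 on the frozen arrays, without passing (adjusted p = 0.117).

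For 25 members more than 1 probe was tested. The probes of a gene differed in sign for 5 members in vitrified embryos and 3 in frozen embryos. Those of CLDN7, CLDN8, DSG2, GJA1, GJB1, GJB2, AQP11, ATP1B1, ATP1B3 and PCDH17 kept one sign in both. The 5 probes of GJB1 lay between +0.14 and +0.20 in vitrified embryos and between -0.41 and -0.34 in frozen embryos. They start between positions 49698628 and 49698632 of chromosome X and so read nearly the same bases. Probes of CLDN7, GJB2 and AQP11 likewise overlap almost fully. For such probes a shared sign is not separate evidence.

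Of the members with arrays that did not overlap between the treatments, some differed in size between the slides. For CLDN3, vitrified minus frozen was -0.47 within the slide that held vitrified replicate 1 and -1.27 within the other. For KRT13 it was +0.27 and +0.28, and for PCDH17 +0.38 and +0.37. For GJA1, whose arrays overlapped, it was -0.05 and +0.62.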
